A study of Mus musculus with 4 samples.

Results

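The Rhox (reproductive homeobox) genes form a cluster on the mouse X chromosome, and 4 of them, *Rhox5*, *Rhox8*, *Rhox10* and *Rhox13*, are described here across the cell classes of the prepubertal testis. They were taken by symbol, as 4 of the 31053 genes listed in the UMI count matrices of the study, and the 30 other Rhox genes listed are used for comparison. The data were single-cell RNA-seq libraries (10x Genomics 3′ chemistry) of cells dissociated from the testicular region around the rete testis (RT) of C57BL/6 mice at postnatal day 14, with 3 pups pooled per library and 5000 cells targeted. The 2 control libraries carried the SF1Cre transgene according to the sample labels, and the 2 Sox17-cKO libraries were SF1Cre:Sox17flox/flox. The methods of the study describe control pups as floxed at *Sox17* and name no Cre for them, so whether the controls carried Cre, floxed alleles or both is not settled here. SF1Cre is driven by *Nr5a1* (SF1), so that recombination is expected in gonadal somatic cells, Sertoli cells included, and not in germ cells. *Sox17*, the deleted gene, was at 356 and 312 CPM (UMIs per 1000000 UMIs of the class in that library) in RT-like cells of control 1 and control 2, against 45.5 and 34.7 CPM in those of Sox17-cKO 1 and Sox17-cKO 2. It was also lower in the 71 endothelial-like cells, a class in which SF1Cre is not expected to act, at 508 and 344 CPM against 93.3 and 101 CPM, and the cause was not tested. These values rest on 8 and 24 control and 13 and 26 Sox17-cKO cells. By in situ hybridization in older mice, the study reports that interstitial vessels of Sox17-cKO testes kept their *Sox17* signal. The Sox17-cKO and control comparison rests on 2 libraries each, and cells of a library are not replicates. Unless said otherwise, 4 values in a row are those of control 1, of control 2, of Sox17-cKO 1 and of Sox17-cKO 2.

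Rhox genes encode homeodomain transcription factors that are expressed mainly in the reproductive tract. *Rhox5* (also known as Pem) is the founding member, and in the testis it is an androgen-responsive gene of Sertoli cells, the somatic nurse cells of the seminiferous tubule. *Rhox8* is also known as a somatic, Sertoli cell member, *Rhox10* as a germ cell member with a role in spermatogonial stem cells, and *Rhox13* as a germ cell member that is induced by retinoic acid at the onset of differentiation and is also translated in meiotic cells. At postnatal day 14 the first wave of spermatogenesis has brought the most advanced germ cells into the pachytene stage of meiosis, so every stage up to it can be compared within one library.

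The libraries held 9388 to 13364 barcodes and 89969877 to 107203219 UMIs. After restriction to 1000 to 4500 detected genes, 22567 of 46001 barcodes remained. Clustering, which left out all Rhox genes, gave 6258 Sertoli-like and 6893 germ-like cells, the latter split into 6 stages of 576 to 1989 cells, and classes were named "-like" from their markers only. Libraries shared 7 to 9 cell barcodes pairwise. The libraries differed in how much marker RNA of the other cell type a class held. The summed level of 12 Sertoli cell markers in germ-like cells was 740 and 774 CPM in control 1 and Sox17-cKO 1 against 191 and 239 CPM in control 2 and Sox17-cKO 2, and the 7 germ cell markers in Sertoli-like cells were at 655 and 780 CPM against 181 and 257 CPM; no marker of either list was at 0. A pair of Sertoli-like subclusters held germ cell transcripts, with 84, 6, 280 and 14 cells and with 163, 10, 74 and 8 cells by library. The part of doublets and of free RNA in these values was not tested. The libraries numbered 1 and those numbered 2 were also processed with different Cell Ranger versions (6.0.2 and 6.1.2). Levels of the 4 genes outside their own cell class are therefore given per library.

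By position, *Rhox5* (X:37804842-37808876, plus strand), *Rhox8* (X:37874778-37878944, minus strand), *Rhox10* (X:38066475-38071691, plus strand) and *Rhox13* (X:38121219-38129967, plus strand) lie in this order in the GENCODE vM21 annotation of GRCm38, within a cluster that runs from 37213804 to 38129967. None of the 4 overlapped another annotated gene. Of the 50-base stretches in their annotated transcripts, none of the 705 of *Rhox5*, 714 of *Rhox10* and 827 of *Rhox13* occurred in a transcript of another gene, and 49 of the 1062 of *Rhox8* did, none of these in a Rhox transcript. By the same count 44.7% to 100% of the stretches of the *Rhox2*, *Rhox3*, *Rhox4* and *Rhox7* copies, pseudogenes left out, were shared, so that UMIs of these copies could not be assigned to a single copy with confidence.

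The promoters of *Rhox10* and *Rhox13* are shown because these 2 genes are highest at different germ cell stages, as described below. Each window holds 250 bases before and 50 bases after the RefSeq start on the plus strand of GRCm38.p6 (chrX:38066225-38066524 and chrX:38120590-38120889). Capitals mark matches, on either strand, to a pair of motifs. The site of factors such as *Gata4* was searched as AGATAA. The half-site of retinoic acid and other nuclear receptors was searched as AGGTCA.
Rhox10: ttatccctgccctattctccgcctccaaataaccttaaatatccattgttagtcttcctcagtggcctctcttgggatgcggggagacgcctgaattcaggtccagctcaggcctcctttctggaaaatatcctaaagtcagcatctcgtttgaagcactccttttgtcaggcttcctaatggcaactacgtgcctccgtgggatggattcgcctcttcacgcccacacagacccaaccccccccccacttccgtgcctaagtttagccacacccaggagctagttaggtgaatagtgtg
Rhox13: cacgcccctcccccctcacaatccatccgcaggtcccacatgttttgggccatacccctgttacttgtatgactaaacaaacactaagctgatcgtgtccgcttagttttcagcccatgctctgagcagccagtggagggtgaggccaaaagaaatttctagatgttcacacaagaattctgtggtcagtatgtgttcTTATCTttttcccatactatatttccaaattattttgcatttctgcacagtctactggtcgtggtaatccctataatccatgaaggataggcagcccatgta
The *Rhox10* window held neither motif. The *Rhox13* window held AGATAA once, on the minus strand, and no AGGTCA. Of the 32851 promoters of the same length in the table, 11.2% held AGATAA and 16.3% held AGGTCA. The RefSeq start of *Rhox10* coincided with the GENCODE start, whereas that of *Rhox13* lay 379 bases and that of *Rhox5* 50234 bases upstream of it; the 3′ counts do not tell which start was used, so the *Rhox5* window is not shown.

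To see how the 4 genes divide between the somatic and the germ cell compartment, Sertoli-like and germ-like cells of the same library were compared. *Rhox5* in Sertoli-like cells was at 187, 279, 281 and 198 CPM, against 14.4, 5.08, 27.9 and 7.35 CPM in germ-like cells. *Rhox8* was at 944, 867, 1019 and 881 CPM in Sertoli-like cells and at 72.7, 10.9, 82.1 and 16.9 CPM in germ-like cells. For both genes every Sertoli-like value lay above every germ-like value, and the germ-like values were higher in the pair of libraries with more Sertoli cell marker RNA in germ-like cells. *Rhox10* showed the opposite order, with 19.1, 4.999, 16.9 and 14.9 CPM in germ-like cells and 1.95, 0.980, 2.73 and 0.892 CPM in Sertoli-like cells. *Rhox13* was at 131, 187, 167 and 177 CPM in germ-like cells and at 21.6, 4.08, 23.7 and 2.68 CPM in Sertoli-like cells. Each of these groups of values was separated without overlap as well. Of all UMIs in retained cells, 85.2% of *Rhox5* and 84.4% of *Rhox8* fell in Sertoli-like cells, and 84.3% of *Rhox10* and 90.0% of *Rhox13* in germ-like cells.

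**Figure D1:**
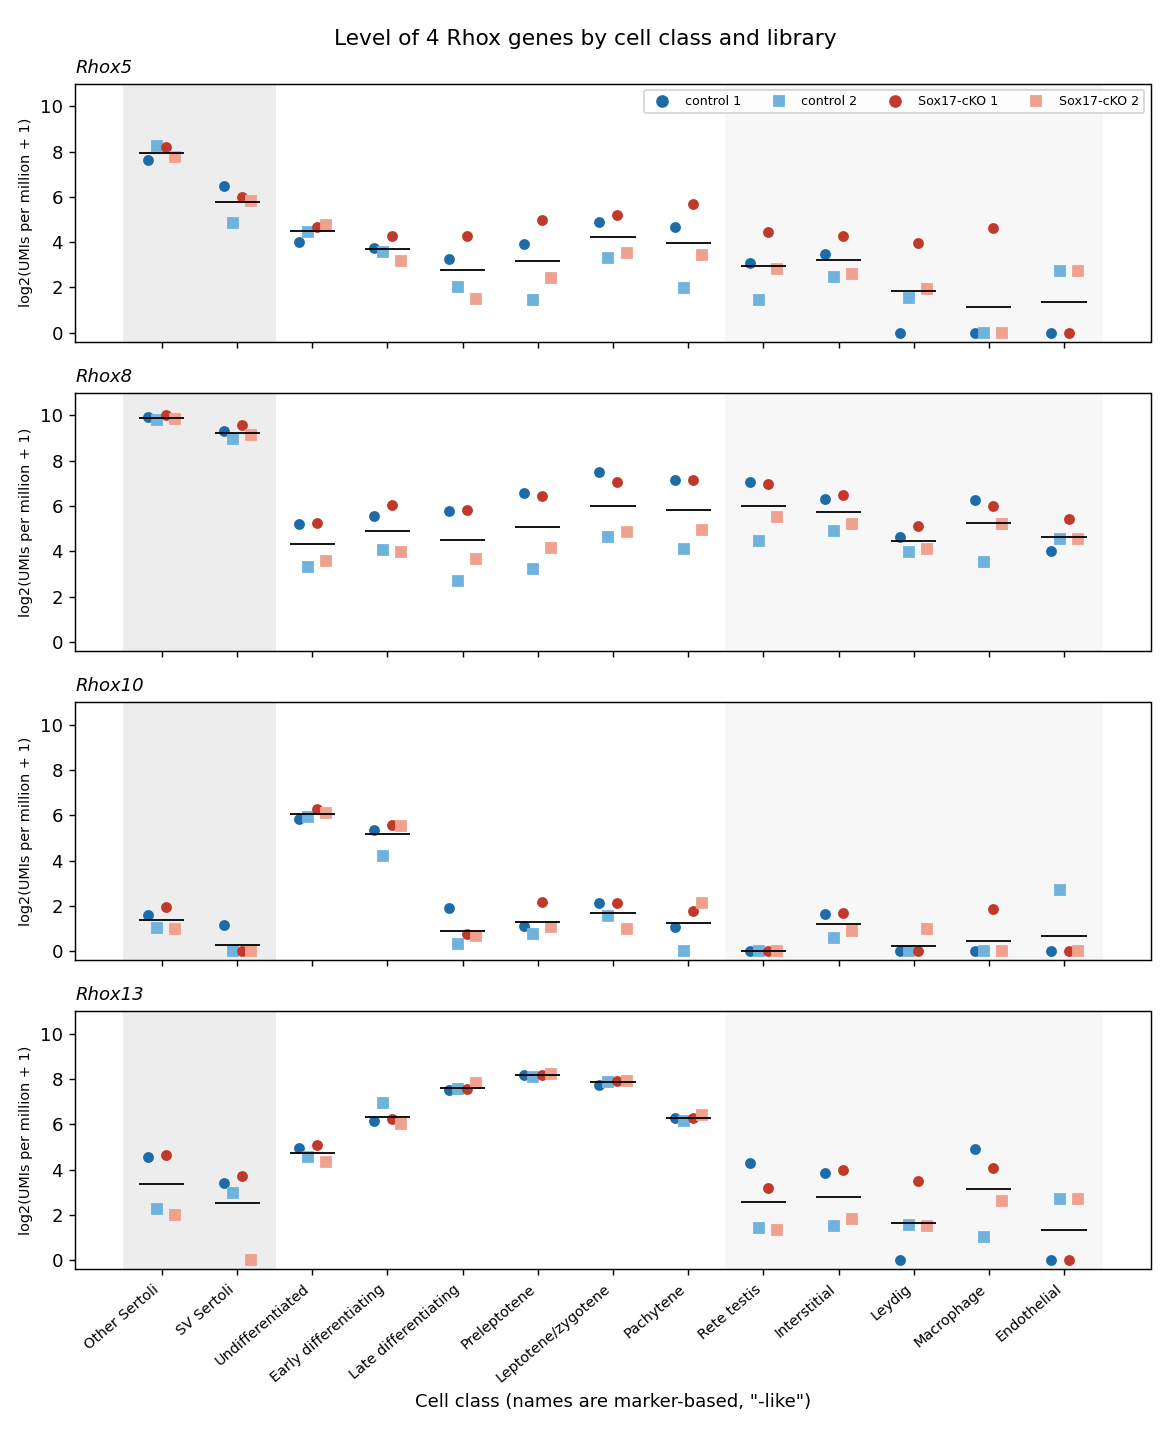
Level of *Rhox5*, *Rhox8*, *Rhox10* and *Rhox13* as log2(CPM + 1), 1 row per gene, in 13 cell classes. Each point is the summed UMIs of a class in 1 library and the bar is the mean of the 4 libraries. *Rhox5* and *Rhox8* are highest in Sertoli-like cells (left, shaded), *Rhox10* in undifferentiated and early differentiating germ-like cells, and *Rhox13* from late differentiating to leptotene/zygotene germ-like cells.

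All 4 genes passed the test of this comparison (edgeR quasi-likelihood test on summed counts with the library as a block), in which 79.5% of all 13547 genes tested did. *Rhox5* rose from germ-like to Sertoli-like cells by 4.64 ± 0.46 on the log2 scale (SE; adjusted p = 0.000107) and *Rhox8* by 5.13 ± 0.59 (adjusted p = 0.000209). *Rhox10* fell by 2.79 ± 0.30 on the log2 scale (adjusted p = 0.000149) and *Rhox13* fell by 3.64 ± 0.60 (adjusted p = 0.00121). The size depended on the library. The Sertoli-like level of *Rhox5* was 13.0-fold and 10.1-fold the germ-like level in control 1 and Sox17-cKO 1, but 54.9-fold and 26.9-fold in control 2 and Sox17-cKO 2. For *Rhox8* it was 13.0-fold and 12.4-fold against 79.2-fold and 52.2-fold. For *Rhox13* the germ-like level was 6.09-fold and 7.03-fold the Sertoli-like level in control 1 and Sox17-cKO 1, but 45.9-fold and 66.3-fold in control 2 and Sox17-cKO 2. For *Rhox10* the folds of germ-like over Sertoli-like level were 9.80, 5.10, 6.18 and 16.7, but 5.56, 21.3, 5.84 and 17.0 with no upper limit on detected genes, where they split by library as for the other 3 genes. The log2 difference of *Rhox13* was -4.22 without control 1, -3.04 without Sox17-cKO 2 and -1.99 with no upper limit on detected genes (adjusted p = 0.0174).

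The share of cells with a UMI was also compared at 1 common depth. After each cell was thinned to 2000 UMIs, *Rhox8* was detected in 79.1% (exact 95% binomial interval 77.9 to 80.2%) of the 5270 Sertoli-like cells outside the Sertoli valve, and *Rhox5* in 33.9% (32.6 to 35.2%), with 615 shallower cells left out. Without thinning the shares were 89.7% and 54.8%. Macrophage-like cells, which should lack both genes, gave 6.48% for *Rhox8* and 1.02% for *Rhox5* at the same depth. Germ-like stages gave 6.76% (late differentiating) to 20.7% (pachytene) for *Rhox8*, with 15.1% in leptotene/zygotene cells, and 1.82 to 6.02% for *Rhox5*. *Rhox13* was detected in 41.98% (39.3 to 44.7%) of 1310 thinned preleptotene-like cells in 3.19% of the Sertoli-like cells outside the Sertoli valve and in 2.05% of macrophage-like cells. *Rhox10* was detected in 10.8% (8.40 to 13.7%) of 573 thinned undifferentiated cells, in 0.455% of these Sertoli-like cells and in 0 of 293 macrophage-like cells, which allows a share of cells with a UMI of up to 1.02% at this depth (3 counts of the total). Intervals cover counting error only. The shares are over all 4 libraries, which contributed unequally. Before thinning, pachytene cells numbered 401, 160, 348 and 157 and macrophage-like cells 31, 105, 61 and 100 by library. The level of *Rhox8* in both classes was higher in control 1 and Sox17-cKO 1, so germ-like and macrophage-like shares are not compared at equal make-up. The median depth of unthinned cells was 4284 UMIs in these Sertoli-like, 6879 in preleptotene-like, 11881 in undifferentiated, 6319 in pachytene and 6730 in macrophage-like cells.

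Within the germ line, *Rhox10* marked the earliest stages. In undifferentiated cells, the class of *Gfra1*, *Etv5* and *Id4* that holds the stem cells, it was at 56.9, 59.8, 76.4 and 68.4 CPM. In early differentiating cells, marked by *Sohlh1*, *Dnmt3b* and *Kit*, it was at 39.3, 17.7, 46.6 and 45.0 CPM. In late differentiating cells it was at 2.79, 0.236, 0.671 and 0.591 CPM. The 3 ranges did not overlap, and the steepest step was the one from early to late differentiating cells. From there on the 4-library mean stayed at 1.07 to 2.40 CPM, on 26, 17, 15 and 12 UMIs by stage. The Sertoli-like mean was 1.64 CPM, and the macrophage-like mean of 0.656 CPM rests on 1 UMI.

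The step tests gave a decrease of *Rhox10* from undifferentiated to early differentiating cells, by 0.82 ± 0.20 on the log2 scale (adjusted p = 0.00135), in a contrast where 43.9% of the 11224 genes tested were called, 22.3% lower and 21.5% higher. From early to late differentiating cells *Rhox10* fell by 4.84 ± 0.30 (adjusted p = 1.07e-14), where 53.3% of genes were called, 26.5% lower and 26.8% higher. Without control 1, the library with most *Rhox10* in late differentiating cells, that change was -6.12. None of the 3 later steps passed the test, with log2 changes of 0.42, 0.64 and -0.71 and adjusted p-values of 0.544, 0.389 and 0.401. The first of them, from late differentiating to preleptotene cells, passed it without control 1 (1.81, adjusted p = 0.0242) and took the other sign without Sox17-cKO 1 (-0.55). Without integration it passed in the other direction (-2.62, adjusted p = 3.99e-09), but no cluster was named early differentiating there. Of the 3215 cells of the cluster named late differentiating there, 1170 were early differentiating in the clustering used here. *Rhox10* was at 17.6, 5.72, 17.0 and 16.1 CPM in that cluster, so the contrast is not the same step. No direction is read for the step from late differentiating to preleptotene cells.

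**Figure D2:**
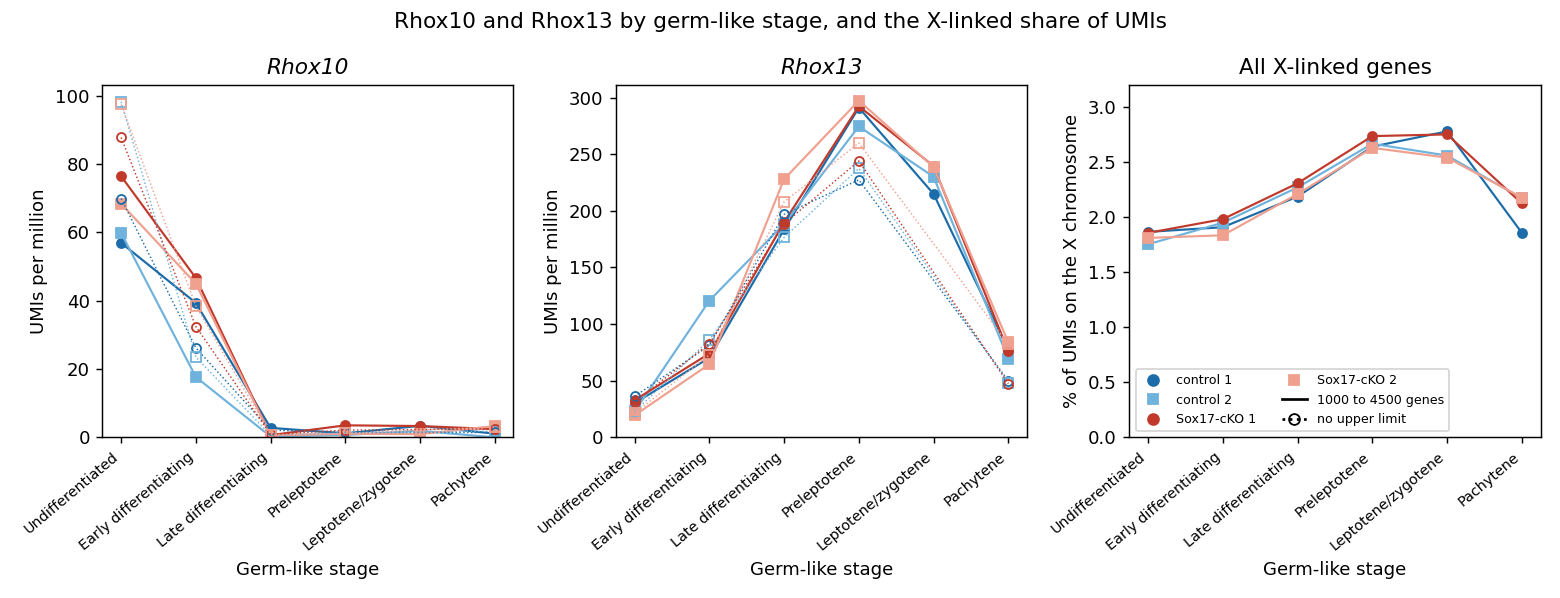
*Rhox10* (left) and *Rhox13* (middle) in CPM, and the percentage of all UMIs that fall on X-linked genes (right), by germ-like stage, 1 line per library. Solid lines are cells with 1000 to 4500 detected genes, and dotted lines a second clustering with no upper limit, in which no cluster was named leptotene/zygotene and the one named preleptotene shares leading genes with that stage. *Rhox10* drops to near 0 at the late differentiating stage, the solid lines of *Rhox13* peak at preleptotene in each library, and the X-linked share stays between 1.75 and 2.78%.

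*Rhox13* was low where *Rhox10* was high and rose as *Rhox10* was lost. It was at 30.3, 22.9, 32.8 and 19.5 CPM in undifferentiated cells and at 70.3, 121, 74.1 and 64.6 CPM in early differentiating cells. In late differentiating cells, marked by *Dmrtb1* and *Esx1*, it reached 184, 188, 190 and 228 CPM. In preleptotene cells, which enter meiosis and express *Stra8* and *Rec8*, it was at 291, 275, 292 and 297 CPM. These 4 ranges did not overlap, and the preleptotene level was 8.91-fold to 15.2-fold that of undifferentiated cells of the same library. Leptotene/zygotene cells, marked by *Sycp1* and *Dmc1*, were at 215, 230, 239 and 239 CPM, which overlapped the late differentiating range. Pachytene cells, the most advanced, were at 77.4, 69.5, 76.0 and 83.9 CPM, within the range of early differentiating cells. The place of the highest level depended on the clustering. At a resolution of 0.8 a germ-like cluster of 533 cells with no stage, 525 of them preleptotene in the clustering used here, had *Rhox13* at 305, 273, 276 and 297 CPM, and the cluster named preleptotene had 283, 275, 305 and 294 CPM, so that these overlapped. Without integration a cluster of 531 cells with no stage, 486 of them preleptotene in the clustering used here, had 309, 282, 285 and 274 CPM, above the 227, 227, 249 and 241 CPM of the cluster named preleptotene, which also held leptotene/zygotene cells (739 of 1845).

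*Rhox13* rose by 1.39 ± 0.17 on the log2 scale from undifferentiated to early differentiating cells (adjusted p = 2.73e-08), against 21.5% of genes higher in that contrast. It rose by 1.26 ± 0.12 from early to late differentiating cells (adjusted p = 1.75e-10; 26.8% of genes higher) and by 0.54 ± 0.11 from late differentiating to preleptotene cells (adjusted p = 5.72e-05; 54% of genes called, 25.8% higher and 28.2% lower). The change from preleptotene to leptotene/zygotene cells was -0.17 ± 0.11 and did not pass the test (adjusted p = 0.193; 59.2% of genes called, 28.5% lower), whereas it did with library-size scaling alone (-0.32, adjusted p = 0.0117) and at a clustering resolution of 0.8 (-0.43, adjusted p = 0.00164). From leptotene/zygotene to pachytene cells *Rhox13* fell by 1.63 ± 0.13 (adjusted p = 4.98e-13), where 52.9% of genes were called, 25.9% lower and 27% higher. The X-linked share of all UMIs was 1.82 ± 0.05% (SD, n = 4 libraries) in undifferentiated, 1.92 ± 0.06% in early differentiating and 2.24 ± 0.06% in late differentiating cells. It was 2.67 ± 0.05% in preleptotene, 2.66 ± 0.13% in leptotene/zygotene and 2.08 ± 0.15% in pachytene cells. By these means it rose up to preleptotene cells and fell at the last step, as *Rhox13* did. Its part in the *Rhox13* steps was not tested.

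The limit on detected genes bore on *Rhox10* most. Over all barcodes, 81.9% of its 6765 UMIs were in barcodes with more than 4500 detected genes, against 54.1% for *Rhox5*, 53.3% for *Rhox8*, 53.9% for *Rhox13* and 55.9% of all UMIs. The share for *Rhox10* was 69.1 to 94.3% by library. When these barcodes were kept and the cells were clustered again, 2 clusters were named undifferentiated. In the first (1174 cells, led by *Egr4* and *Foxf1*) *Rhox10* was at 69.3, 93.4, 90.4 and 103 CPM, and in the second (1137 cells) at 70.4, 102, 85.7 and 94.0 CPM. The second was led by *Sall4* and *Rhox10* itself, and *Sohlh1*, a marker of the early differentiating list, was also among its leading genes. Under the limit, 191 of its cells were early differentiating and 19 undifferentiated, and 927 were not retained. Together the 2 clusters were at 69.9, 98.2, 87.7 and 97.4 CPM, against 26.2, 23.5, 32.4 and 38.4 CPM in early differentiating cells. The first step (a log2 change of -1.61, adjusted p = 1.41e-08) rests on this naming of the second cluster, so its size is not read. The cluster named preleptotene (1956 cells) had *Inca1*, *Terb1* and *Prdm9* among its leading genes, as the leptotene/zygotene cluster had under the limit, so it is not the same class. *Rhox13* was at 227, 237, 244 and 260 CPM in it, and no peak at preleptotene is read from this clustering. Barcodes with many detected genes can hold more than 1 cell, and the part of doublets in these values was not tested.

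The share of *Rhox5* in the summed UMIs of *Rhox5* and *Rhox8* was compared between classes of the same library. It was 16.7, 25.0, 22.1 and 18.9% in Sertoli-like cells outside the Sertoli valve, and 29.9, 70.6, 39.4 and 70.6% in undifferentiated cells. The undifferentiated share was higher in 4 of 4 libraries, by 31.9 ± 19.5 percentage points (SD, n = 4; exact two-sided sign-flip permutation p = 0.125, the smallest that 4 libraries allow; 0.333 after Benjamini-Hochberg adjustment over 8 classes). The numbers behind it were small, with 127 *Rhox5* and 195 *Rhox8* UMIs in all. With no upper limit on detected genes they were 650 and 707 UMIs, and the share in the 2 clusters named undifferentiated was 38.4, 67.5, 42.9 and 55.4% against 17.7, 19.8, 24.1 and 16.8% in Sertoli-like cells, again higher in each library. Early differentiating cells had a higher share in 3 of 4 libraries (exact permutation p = 0.25, n = 4), and in each of the 4 later stages it was higher in 2 and lower in 2.

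**Figure D3:**
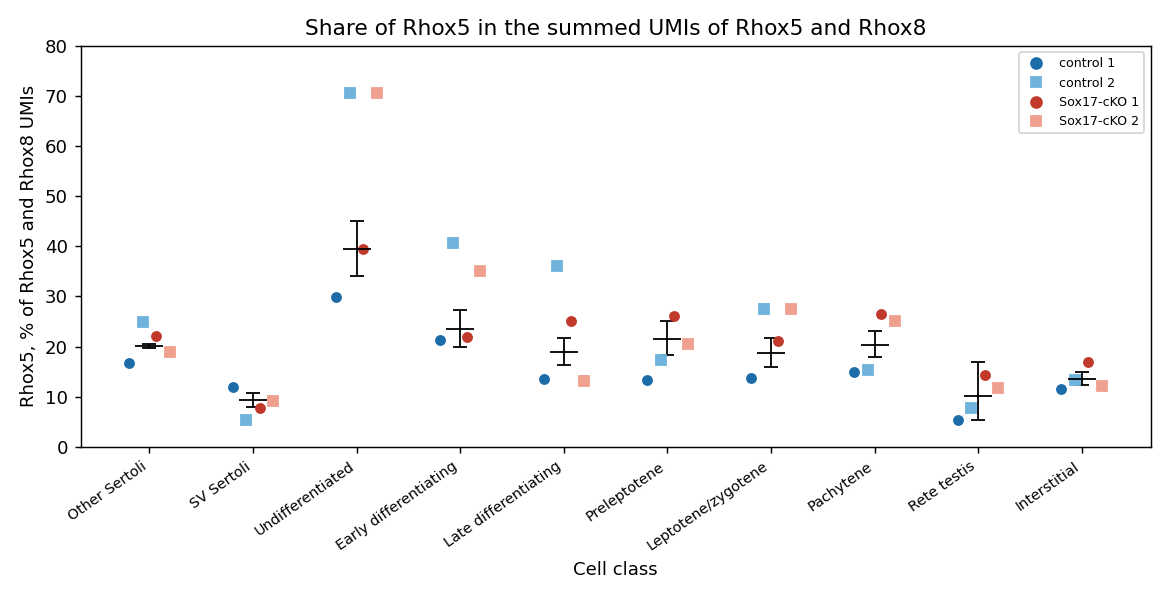
Share of *Rhox5* in the summed UMIs of *Rhox5* and *Rhox8*, in percent, by cell class. The bar is the value over all 4 libraries with its exact 95% binomial interval and the points are the libraries. The bar weights libraries by their UMIs and its interval covers counting error only. Undifferentiated germ-like cells lie at 39.4% (29.9 to 70.6% by library), and in the stages from late differentiating on the libraries lie on both sides of their own Sertoli-like value.

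The absolute level of *Rhox5* in undifferentiated cells was 15.3, 21.1, 24.5 and 26.0 CPM. In the 2 clusters named undifferentiated with no upper limit on detected genes it was 12.9, 13.0, 13.9 and 11.8 CPM. Neither set had the gap between the pair of libraries numbered 1 and the pair numbered 2 that *Rhox8* showed. In early differentiating cells *Rhox5* was at 12.4, 10.8, 18.3 and 7.87 CPM, a log2 change of -0.73 ± 0.37 that did not pass the test (adjusted p = 0.106; 0.0308 without the filter on low counts and 0.0194 with no upper limit on detected genes). In pachytene cells it spread from 2.96 to 50.8 CPM by library. *Rhox8* spread from 8.80 to 37.6 CPM in undifferentiated and from 16.3 to 141 CPM in pachytene cells, with the pair numbered 1 above the pair numbered 2 at each stage. *Rhox8* rose from undifferentiated to early differentiating (0.55 ± 0.19, adjusted p = 0.0202), from late differentiating to preleptotene (0.65 ± 0.15, adjusted p = 0.000557) and from preleptotene to leptotene/zygotene cells (1.02 ± 0.15, adjusted p = 9.68e-07; 30.7% of genes higher), and *Rhox5* rose at the last of these steps (0.94 ± 0.35, adjusted p = 0.0222). The summed Sertoli cell markers moved with both at that step, from 173 to 961 CPM in preleptotene to 337 to 1987 CPM in leptotene/zygotene cells. They also rose in 4 of 4 libraries from late differentiating (126 to 509 CPM) to preleptotene cells, and in 3 of 4 from undifferentiated (157 to 357 CPM) to early differentiating cells (181 to 525 CPM). Their part in the *Rhox5* and *Rhox8* steps was not tested.

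Sertoli-like cells were not uniform in *Rhox5*. A second clustering of them, again without Rhox genes, gave 8 subclusters, and over all libraries *Rhox5* ranged from 62.6 to 459 CPM between these, while *Rhox8* ranged from 400 to 1188 CPM. The highest subcluster (923 cells, led by *U90926* and *Gsta2*) had *Rhox5* at 348, 518, 604 and 323 CPM and *Rhox8* at 1368, 987, 1448 and 981 CPM. The subcluster of 1128 cells with *Nid1* among its leading genes had *Rhox5* at 129, 186, 207 and 149 CPM and *Rhox8* at 928, 921, 1049 and 884 CPM. The *Rhox5* ranges of these did not overlap, while those of *Rhox8* did. These 2 subclusters were picked after their values were seen, differed in depth (median 2709 and 8417 UMIs per cell) and are given without a test. In the subcluster of 735 cells with a median of 31.4% mitochondrial UMIs both genes were low, at 79.8 CPM (*Rhox5*) and 400 CPM (*Rhox8*).

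**Figure D4:**
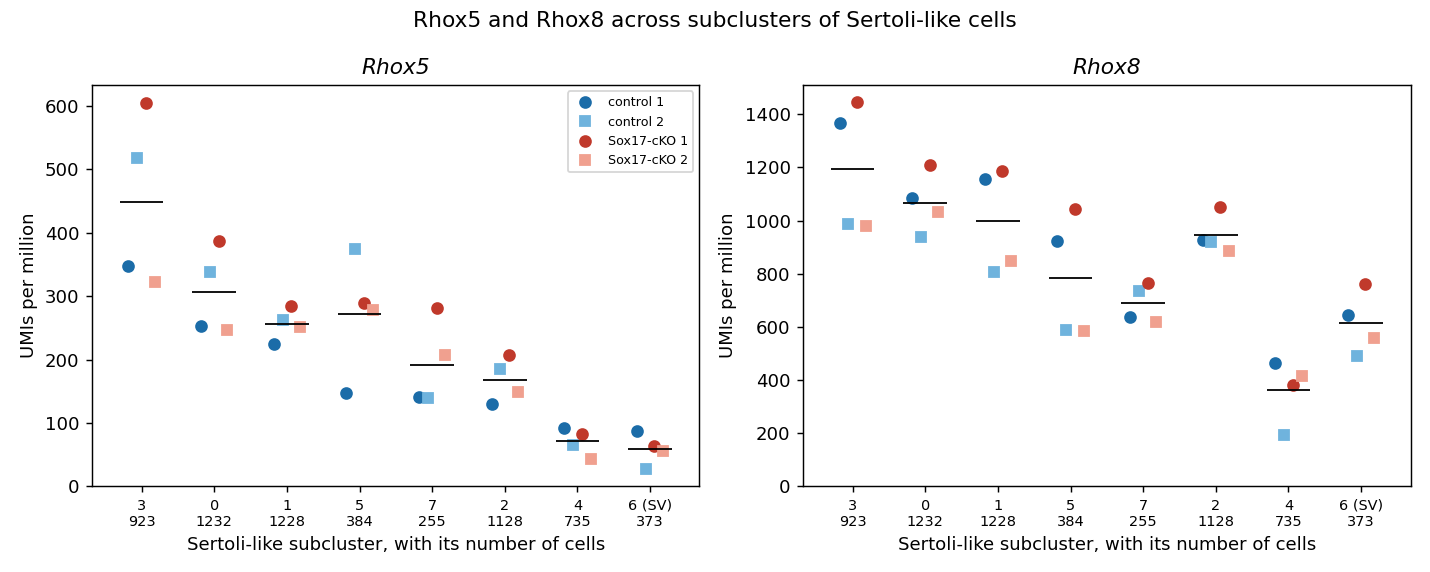
*Rhox5* (left) and *Rhox8* (right) in CPM by subcluster of Sertoli-like cells, ordered by the level of *Rhox5* over all libraries. Points are libraries, bars their mean, and the number of cells stands under each subcluster. *Rhox5* falls from 459 CPM in the first to 62.6 CPM in the last, the Sertoli valve-like subcluster (SV), and *Rhox8* runs from 400 to 1188 CPM.

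The Sertoli valve (SV) is the ring of modified Sertoli cells between the RT and the seminiferous tubule. The SV-like subcluster, named by *Wnt4*, *Wfdc18*, *Tesc* and 5 other markers, held 373 cells, and its leading genes also included *Cyr61* and *Atf3*, which respond to stress. In it *Rhox5* was at 87.2, 27.5, 63.7 and 56.2 CPM, against 194, 298, 294 and 214 CPM in the other 5885 Sertoli-like cells. *Rhox8* was at 645, 492, 760 and 557 CPM, against 966, 895, 1034 and 918 CPM. Both ranges were separated without overlap. *Rhox5* fell by 1.96 ± 0.18 on the log2 scale (adjusted p = 1.11e-09) and *Rhox8* fell by 0.65 ± 0.09 (adjusted p = 1.61e-06), in a test in which 26.9% of 10671 genes were called, 12.3% lower and 14.6% higher. *Rhox13* changed by -1.01 ± 0.38 (adjusted p = 0.0502), and *Rhox10*, with 1 UMI in SV-like cells, was not tested. The share of *Rhox5* in the summed UMIs of *Rhox5* and *Rhox8* was lower in SV-like cells in 4 of 4 libraries (5.29 to 11.9% against 16.7 to 25.0%; exact permutation p = 0.125, the smallest possible).

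Whether loss of *Sox17* was accompanied by a change of the Rhox genes was asked in Sertoli-like cells, where Cre activity is expected, and in germ-like cells. *Sox17* itself was at a mean of 0.246 CPM in Sertoli-like and 0.231 CPM in germ-like cells with no upper limit on detected genes. Among gonadal somatic cells the study reports it in RT epithelium only. The comparison is therefore between mice of 2 genotypes and does not read a loss of *Sox17* within these classes. *Rhox5* in Sertoli-like cells was at 187 and 279 CPM in controls and at 281 and 198 CPM in Sox17-cKO, and *Rhox8* at 944 and 867 CPM against 1019 and 881 CPM. The groups overlapped for both. *Rhox10* in germ-like cells was at 19.1 and 4.999 CPM in controls and 16.9 and 14.9 CPM in Sox17-cKO, and *Rhox13* at 131 and 187 CPM against 167 and 177 CPM. These overlapped too. With no upper limit on detected genes *Rhox10* in germ-like cells was at 27.0 and 31.3 CPM in controls and at 32.7 and 41.4 CPM in Sox17-cKO, and the groups did not overlap, as for 16.5% of the 18288 genes with at least 20 UMIs there (10.7% with Sox17-cKO higher). It did not pass the test there either (a log2 change of 0.31 ± 0.24, adjusted p = 1.0).

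None of the 4 genes passed the test in either class, and 0% of the 12513 genes tested in Sertoli-like and 0% of the 14075 in germ-like cells did (edgeR quasi-likelihood test, 75 and 21 genes at an unadjusted p under 0.05; DESeq2 gave 0 and 0, with 61 and 17). In Sertoli-like cells the log2 change was -0.10 ± 0.34 for *Rhox5* and -0.06 ± 0.29 for *Rhox8* (adjusted p = 1.0 for each). In germ-like cells it was 0.35 ± 0.54 for *Rhox10* and 0.07 ± 0.27 for *Rhox13* (adjusted p = 1.0 for each). These signs are those of the TMM-scaled fit, and with scaling by library size alone *Rhox5* was at 0.043 and *Rhox8* at 0.070. The counts of genes past the threshold were 21 without Sox17-cKO 1 and 2 without Sox17-cKO 2 in Sertoli-like cells, and 1, 2, 3 and 1 in germ-like cells when each library in turn was left out, with none of the 4 genes among them. Each of these fits has 1 group of 1 library, which is assumed to vary like the other group. Within 1 Cell Ranger version the log2 ratio of Sox17-cKO to control was 0.59 (libraries 1) and -0.50 (libraries 2) for *Rhox5* in Sertoli-like cells, and -0.18 and 1.58 for *Rhox10* in germ-like cells. With the library number as a block, the same edgeR test called 13 genes in Sertoli-like and 0 in germ-like cells. Unadjusted p was under 0.05 for 585 and 148 genes. *Rhox5* and *Rhox8* were not among the 13.

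The libraries differed in how many of their germ-like cells were at the stages that hold *Rhox10*, and the part of this in the values of all germ-like cells was not tested. Undifferentiated and early differentiating cells together made up 33.2, 14.4, 24.0 and 24.2% of the germ-like cells. Within undifferentiated cells *Rhox10* was at 56.9 and 59.8 CPM in controls and at 76.4 and 68.4 CPM in Sox17-cKO, ranges that did not overlap, but in the 2 clusters named undifferentiated with no upper limit on detected genes they were 69.9 and 98.2 CPM against 87.7 and 97.4 CPM and overlapped. *Rhox10* in early differentiating cells and *Rhox13* in late differentiating, preleptotene and leptotene/zygotene cells also had ranges that did not overlap between control and Sox17-cKO, with Sox17-cKO higher. So did *Rhox5* in undifferentiated cells, at 15.3 and 21.1 CPM in controls against 24.5 and 26.0 CPM. With no upper limit on detected genes *Rhox5* overlapped there, at 12.9 and 13.0 CPM against 13.9 and 11.8 CPM. Of all genes with at least 20 UMIs in the stage, 24, 21.4, 18.2, 21.4 and 20% had ranges that did not overlap in these 5 stages, from undifferentiated to leptotene/zygotene cells, and 16.5, 14.1, 9.5, 12.9 and 12% did so with Sox17-cKO higher. *Rhox13* overlapped in undifferentiated, early differentiating and pachytene cells, and its early differentiating mean was 95.5 CPM in controls and 69.4 CPM in Sox17-cKO. With no upper limit *Rhox13* in late differentiating cells was at 197 and 177 CPM in controls and 189 and 208 CPM in Sox17-cKO, and overlapped. *Rhox10* in early differentiating cells stayed apart there, at 26.2 and 23.5 CPM against 32.4 and 38.4 CPM, as did *Rhox13* in the cluster named preleptotene, at 227 and 237 CPM against 244 and 260 CPM. *Rhox10* in pachytene cells was also apart there, at 1.45 and 1.84 CPM against 2.51 and 3.08 CPM, on 41 UMIs in all. The shares of all genes were 19% (11.2% with Sox17-cKO higher) for that early differentiating class, 18.4% (11.4%) for the preleptotene and 23.1% (14.8%) for the pachytene one. These differences within a stage were not tested.

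Of the 30 other Rhox genes, 16 had at least 20 UMIs in the retained cells, 4 had none, and all of these 16 had a higher level in germ-like than in Sertoli-like cells. Since copies of *Rhox2*, *Rhox3*, *Rhox4* and *Rhox7* share sequence, these counts of genes and the values of single copies are uncertain. The 11 that passed the filter on low counts were lower in Sertoli-like cells in the test (41.7% of all genes were lower). Their median log2 change was -2.82, against -0.08 over all genes. The germ-like sums alone are enough to pass this filter, so genes scarce in Sertoli-like cells could enter only through their germ-like level. The shared direction of the 11 is therefore not read as a result. *Rhox1* (1756 UMIs) was highest in preleptotene cells, at 60.6 CPM over all libraries, against 37.5 CPM in undifferentiated and 13.2 CPM in late differentiating cells. *Rhox7a* and *Rhox7b* were also highest in preleptotene cells (11.6 and 30.0 CPM), with 9.02 and 20.8 CPM in undifferentiated and 2.70 and 8.21 CPM in late differentiating cells. From late differentiating to preleptotene cells, 5 of 6 other Rhox genes tested rose, where 25.8% of all genes did. The sums of 1 stage are enough to pass the filter, so genes scarce in late differentiating cells could enter through a stage where they are high. The count of 5 is therefore not read as a result beside the share of all genes. *Rhox1*, which is no such copy, was among the 5 and rose by 2.09 ± 0.15 (adjusted p = 1.14e-13). UMIs counted as *Rhox7b* (70.8% of stretches shared) rose by 1.88 ± 0.20 (adjusted p = 1.13e-09) and those counted as *Rhox3f* (62.0% shared) by 3.44 ± 0.62 (adjusted p = 1.68e-05). The others with at least 20 UMIs were *Rhox2a*, *Rhox2b*, *Rhox2c*, *Rhox2d*, *Rhox2f*, *Rhox2g*, *Rhox2h*, *Rhox3h*, *Rhox4e*, *Rhox6*, *Rhox9* and *Rhox11*, with 38 to 747 UMIs each. By stage, 7 of the 16 were highest in preleptotene, 4 in pachytene, 3 in leptotene/zygotene, and 1 each in undifferentiated (*Rhox9*) and early differentiating cells (*Rhox4e*). These places are by level over all libraries and some are near ties, such as *Rhox2d* at 3.80 CPM in pachytene and 3.77 CPM in preleptotene cells. The shares of all genes highest at each stage were not counted, so nothing is read from this tally. Over all libraries the highest stage level was 63.9 CPM for *Rhox10* and 288 CPM for *Rhox13*.

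**Figure D5:**
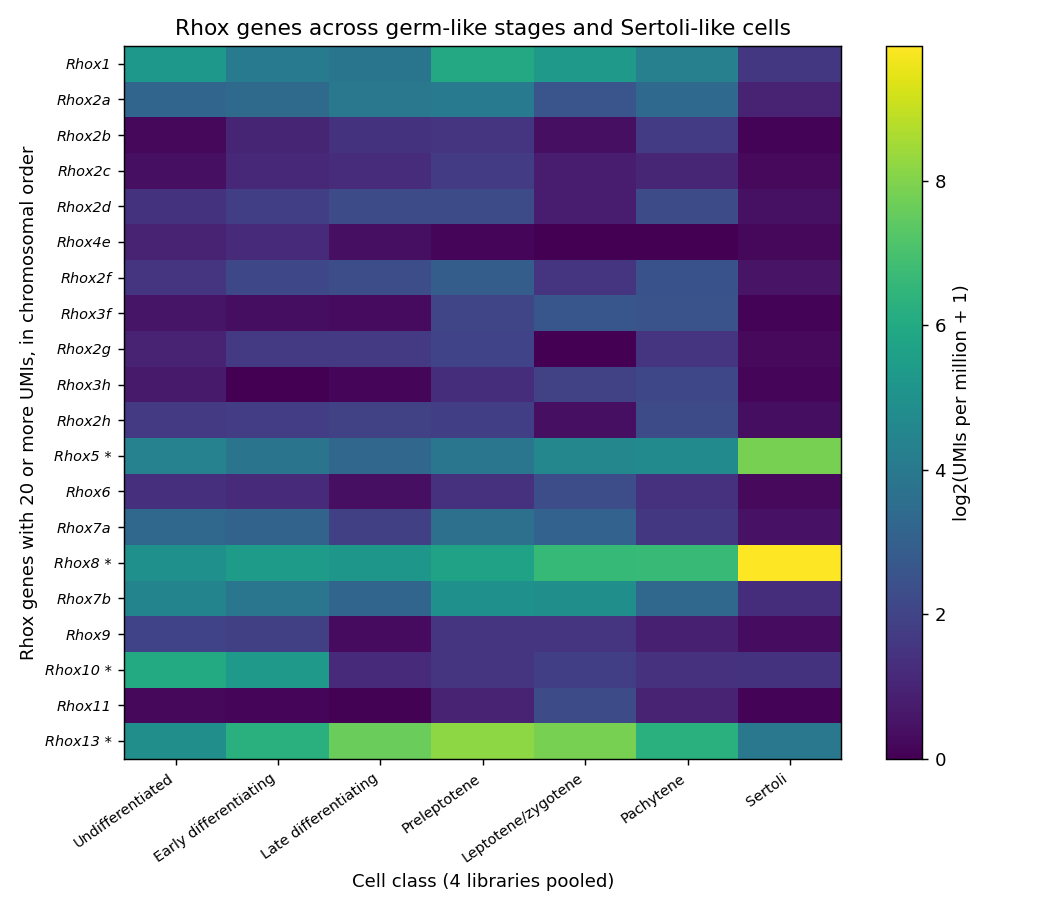
Level as log2(CPM + 1), over all 4 libraries, of the 20 Rhox genes with at least 20 UMIs, in chromosomal order from top to bottom, in 6 germ-like stages and in Sertoli-like cells. Asterisks mark *Rhox5*, *Rhox8*, *Rhox10* and *Rhox13*. *Rhox5* and *Rhox8* are the only rows brightest in the Sertoli-like column, and most others are dim throughout.

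Genes linked to these members by earlier work were looked up in the same tests. The androgen and *Rhox5*-linked list had 8 of 9 genes tested between Sertoli-like and germ-like cells, and all 8 were higher in Sertoli-like cells, with a median of 4.99 against -0.08 over all genes (37.8% of all genes were higher). *Gata4*, a transcription factor of gonadal somatic cells, was at a mean of 72.4 CPM in Sertoli-like and 4.34 CPM in germ-like cells, and *Nr5a1* at 77.2 and 3.18 CPM. *Unc5c*, which encodes a netrin receptor and is known as a *Rhox5*-repressed gene, was too low to test. Between SV-like and other Sertoli-like cells, 2 of 8 were higher and 4 lower, against 14.6% and 12.3% of all genes: *Nr5a1* fell by 0.47 ± 0.14 (adjusted p = 0.0107), whereas *Gata4* rose by 0.50 ± 0.12 (adjusted p = 0.00144). None of the 8 passed the test between Sox17-cKO and control in Sertoli-like cells (median 0.07).

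The spermatogonial and *Rhox10*-linked list had 5 of 6 genes tested between germ stages. From undifferentiated to early differentiating cells 3 fell and 1 rose, with a median of -1.13 against 0.01 over all genes (22.3% of all genes fell and 21.5% rose). *Zbtb16*, a transcription factor of undifferentiated spermatogonia, fell by 2.10 ± 0.12 (adjusted p = 3.93e-15) and *Bcl6b*, a gene of stem cell maintenance, fell by 1.96 ± 0.35 (adjusted p = 2.39e-05), whereas *Dmrt1*, which controls spermatogonial development, rose by 0.35 ± 0.13 (adjusted p = 0.0295). *Nanos2*, a repressor of differentiation, had a mean of 7.47 CPM in undifferentiated cells and was not tested between stages. From early to late differentiating cells, where *Rhox10* fell most, 3 fell and 1 rose, against 26.5% and 26.8% of all genes. Of the retinoic acid and *Rhox13*-linked list, 5 of 7 genes were lower and 2 higher in Sertoli-like than in germ-like cells, against 41.7% and 37.8% of all genes: the receptor *Rara* was higher, by 2.34 ± 0.23 (adjusted p = 0.000104), and *Rarg* lower, by a log2 change of -2.83 ± 0.23 (adjusted p = 5.09e-05). *Rxra* was also lower (-1.18 ± 0.19, adjusted p = 0.000962) and *Rxrb* higher (0.52 ± 0.12, adjusted p = 0.00488). From undifferentiated to early differentiating cells 3 of 6 fell and 1 rose (22.3% and 21.5% of all genes), and no gene of this list rose from early to late differentiating or from late differentiating to preleptotene cells, where *Rhox13* and 26.8% and 25.8% of all genes did. At these steps 2 and 3 of the 6 fell, against 26.5% and 28.2% of all genes. None of the 6 *Rhox10*-linked and 7 *Rhox13*-linked genes tested passed the test between Sox17-cKO and control in germ-like cells.

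The genes most like each member in level were found by Pearson correlation of log2(CPM + 1) over 49 sums of a class in a library, among 15222 genes. The sums share libraries and classes, so these values are a description. For *Rhox5* they were *Lpar3* (0.85), *Cst9* (0.85), *Tmem114* (0.85), *Shbg* (0.83) and *Gm648* (0.83), and for *Rhox8* they were *Cst12* (0.97), *Cst9* (0.97), *4933402E13Rik* (0.95), *Tmem184a* (0.94) and *Gm14569* (0.94). *Rhox5* and *Rhox8* had 0.79 with each other. For *Rhox10* they were *Nlrp4f* (0.93), *Gm32857* (0.92), *Barx1* (0.91), *Nefm* (0.91) and *Gm38979* (0.90). For *Rhox13* they were *Nasp* (0.95), a histone chaperone, *Tex11* (0.95), an X-linked meiotic gene, *M1ap* (0.95), *Pole* (0.94), a DNA polymerase subunit, and *Smc1b* (0.94), a meiotic cohesin. *Rhox10* and *Rhox13* had 0.28 with each other.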

How the data were processed

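Testicular cells were profiled in 4 single-cell libraries, 2 control and 2 Sox17-cKO, each of 3 pooled pups, with groups taken from the sample labels. The deposited matrices hold raw UMI counts per gene and barcode, which the authors made with Cell Ranger (6.0.2 or 6.1.2, by the file headers) on mm10 (GRCm38); STAR is also named in the submitters' processing notes. Files that aggregate libraries were not used.

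Barcodes with 1000 to 4500 detected genes were retained, as in the methods of the study. The mitochondrial limit of 1% given there left almost no cells and was not applied. Cells were integrated with CCA in Seurat 5.3.0 (2000 variable features, 20 components, resolution 0.4), with the Rhox genes and the linked lists left out of the features, and clusters were named from marker scores (at least 0.8 for a class, 0.6 for a stage and 1.0 for the SV-like subcluster), thresholds that were set after seeing the data. Doublets were kept, because Scrublet in scanpy 1.11.5 called none in 2 of the 4 libraries, and removal of the highest doublet scores was tried as an alternative.

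The UMIs of each class were added up within a library and scaled to CPM. Tests used edgeR 4.0.16 (TMM, filterByExpr, quasi-likelihood test, Benjamini-Hochberg adjustment over all genes tested, threshold 0.05), with the library as a block where classes of the same libraries were compared. They were also run on simulated counts, which held no difference between libraries beyond size and random spread. That run does not cover the split by library number seen here. The fold changes are log2 values, and UMI counts were not scaled by gene length. Named were the 4 members, other Rhox genes with at least 20 UMIs, the first 4 genes of each of 3 linked lists (androgen and *Rhox5*, spermatogonial and *Rhox10*, retinoic acid and *Rhox13*) and the 5 genes most like each member. Of these, 1 linked gene is not reported here. Members and lists were chosen with earlier results of these data known. Sequences are from RefSeq (GRCm38.p6), in which 3 of the 4 members had a promoter entry. Libraries are the replicates, the labels do not state separate litters, and p-values measure the spread between these libraries only. Alternatives were DESeq2 1.42.0, other scaling, filters, clusterings and depths, each library left out, and the library number as a block.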

Additional observations from a re-analysis of the deposited data

Results flagged for a closer look

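UMIs of the 4 genes were also found in barcodes and cells that the comparisons left out. Barcodes with more than 4500 detected genes held 54.1% of the *Rhox5*, 53.3% of the *Rhox8*, 81.9% of the *Rhox10* and 53.9% of the *Rhox13* UMIs, and levels with these barcodes kept are given above. Barcodes with fewer than 1000 detected genes held 6.97% of the *Rhox5*, 7.02% of the *Rhox8*, 2.78% of the *Rhox10* and 4.63% of the *Rhox13* UMIs. The cluster of 1407 retained cells that was given no name, with a median of 34.3% mitochondrial UMIs, held 182 *Rhox5*, 615 *Rhox8*, 47 *Rhox10* and 212 *Rhox13* UMIs, so that markers of both compartments were found in it.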

How the results depend on the processing

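Of 311 values under an alternative, 278 counted as unchanged. A test of a single gene had to keep its direction and its side of the threshold. A share of cells had to stay within the spread between libraries, and a count of genes within a set factor of the count reported. The 278 include all 52 single-gene tests for Sertoli-like against germ-like cells and all 26 for SV-like cells. Reversals concerned log2 changes that did not pass the test in the fit reported, and the cause was not tested. Between Sox17-cKO and control, *Rhox5* in Sertoli-like cells was at 0.043 with library size only and 0.20 with no upper limit on detected genes, and at -0.40 to 0.30 with a library left out. *Rhox8* was at 0.070 and 0.054 under the same settings, 0.041 with cells under 10% mitochondrial UMIs, 0.0042 without Sertoli-like cluster 10, and -0.16 to 0.025 with a library left out. *Rhox10* in germ-like cells ranged from -0.29 to 1.61 and *Rhox13* from -0.18 to 0.37 with a library left out, and *Rhox13* was at -0.029 with no upper limit. The replicate block gave -0.08, -0.06, 0.56 and 0.09 for *Rhox5*, *Rhox8*, *Rhox10* and *Rhox13*. Same-numbered libraries deviated together (r = 0.59 in Sertoli-like and 0.56 in germ-like cells), but there are only 2 pairs and the labels state no pairing. Genes past the threshold numbered 13 with the block and 0 to 21 with a library left out in Sertoli-like cells, and 3 without the filter on low counts and 1 to 3 with a library left out in germ-like cells, where a group of 1 library is assumed to vary like the other.

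For *Rhox10*, preleptotene against late differentiating was -2.62 without integration (adjusted p = 3.99e-09) and -0.55 to 1.81 with a library left out, past the threshold at 1.81 without control 1 (adjusted p = 0.0242), and leptotene/zygotene against preleptotene was -0.15 at resolution 0.8. Also past the threshold came *Rhox13* for the latter step, at -0.32 with library size only and -0.43 at resolution 0.8, and *Rhox5* for early differentiating against undifferentiated, at -0.65 without the filter and -1.03 with no upper limit. Thinned to 1000 UMIs, the shares were 20.03% for *Rhox5* and 57.3% for *Rhox8* in Sertoli-like, 8.33% for *Rhox10* in undifferentiated and 24.2% for *Rhox13* in preleptotene cells, since fewer UMIs are read. Without integration no cluster was named early differentiating or leptotene/zygotene, and with no upper limit none leptotene/zygotene or SV-like, so those contrasts were not run there. The *Rhox10* levels rest on few UMIs and limit what its later steps can show.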

Other observations

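*Rhox8* was also counted outside the tubules. In the interstitial-like cluster led by collagen genes (2892 cells) it was at 114, 47.7, 124 and 57.0 CPM (libraries in the order used above), in RT-like cells at 132, 20.8, 124 and 45.3 CPM, and in macrophage-like cells at 76.4, 10.7, 62.9 and 36.1 CPM. The pair of libraries numbered 1 was higher in all 3, as were the summed Sertoli cell markers in macrophage-like cells (594 and 522 CPM against 157 and 250 CPM). The collagen-led cluster had the highest *Rhox8* of the interstitial-like clusters. Over all libraries *Rhox8* was at 71.2 CPM in it and at 22.2 to 31.6 CPM in the other interstitial-like clusters. Macrophage-like cells were at 33.1 CPM, Leydig-like cells at 18.9 CPM and endothelial-like cells at 25.0 CPM. The share of *Rhox5* in the summed UMIs of *Rhox5* and *Rhox8* was lower in interstitial-like than in Sertoli-like cells outside the SV in 4 of 4 libraries, with a mean difference of -7.19 percentage points (exact permutation p = 0.125, the smallest that 4 libraries allow; adjusted 0.333).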
